A study of Mus musculus with 22 samples.

Results

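In testis of mice heterozygous for 3 Robertsonian translocations, named 3Rb, the chromatin mark γH2AX was set against the histone variant H3.3, and the positions where both marks lay together or apart were mapped along each chromosome. The members were the 3 libraries titled 3Rb with an antibody to γH2AX, from mice of 4 weeks, and the 3 titled 3Rb with an antibody to H3.3, from mice of 6 weeks: 6 of the 22 libraries of the series. All 6 came from whole testis of F1 (B6.SPRET7MOLF12 x RBF/Dnj) males, labelled heterozygous carriers of 3 Robertsonian translocation. The name of the first parental strain refers to DNA of chromosome 7 from SPRET and of chromosome 12 from MOLF on a B6 background. The labels do not say which chromosomes are joined; from background knowledge of RBF/Dnj these are the pairs 1 and 3, 8 and 12, and 9 and 14. As levels need a reference, the 3 input libraries of the series were pooled. They came from testis of a 1Rb_M animal at 4 weeks, whose strain label is that of the 1Rb_P cross, from B6.SPRET7MOLF12 (Cg) at 6 weeks and from C57BL/6J (B6) at 4 weeks. None came from 3Rb, so DNA copy number of this cross was not measured. Every γH2AX library was of 4 weeks and every H3.3 library of 6 weeks, so mark and age cannot be told apart. To find where 3Rb differs, the same comparison was made in F1 offspring of strain CBy.RBF-Rb(8.12)5Bnr/J and strain B6.SPRET7MOLF12, which carry a single translocation, of 8 and 12: 3 γH2AX libraries of 1Rb_M at 4 weeks and 3 H3.3 libraries of 1Rb at 6 weeks.

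γH2AX is histone H2AX phosphorylated by the kinases ATM and ATR. In spermatocytes it marks DNA breaks early in meiosis, then chromosomes or segments that have not paired with a partner, and it covers the X and Y in the sex body, where transcription is silenced. H3.3 is the histone H3 variant that chaperones such as HIRA and DAXX place outside DNA replication, at active genes and also on the sex chromosomes when their nucleosomes are exchanged during silencing. A Robertsonian translocation joins the centromeres of a pair of chromosomes, and in a heterozygote it must pair with both unjoined partners, so segments next to the centromere may pair late or not at all.

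Total counts ran from 49846400 to 56385465 in γH2AX libraries of 3Rb and from 64482477 to 70858919 in H3.3 libraries, against 11876426 to 51651953 in the inputs. Counting error at the median 50 kb window was 3.6 to 3.81% for γH2AX and 3.03 to 3.18% for H3.3, with up to 7.02% in the inputs. The chi-square per degree of freedom between replicates was 1.38 to 2.43, so replicates differed by more than counting error. Whether the numbered replicates were separate animals is not said in the labels, and p-values then measure only the spread between these samples. ChIP counts of DNA carry no expression, so the tissue could not be checked by marker genes. In whole testis, a mark on more cells and a denser mark per cell cannot be told apart.

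Levels are log2 ratios of a library to the pooled inputs per 50 kb window, with 0 set at the median window of the 13 autosomes in no translocation. Differences of γH2AX minus H3.3 are log2 values from edgeR's quasi-likelihood test with trimmed mean of M-values (TMM) scaling, and a call is an adjusted p under 0.05. On this scale the median window of those 13 autosomes sat at -0.096, so a difference near that value means that the marks lay as they did in a typical autosomal window. With library totals that median was -0.23, and with the summed counts of the 13 autosomes it was 0.15. Of 53118 windows tested, 45822 were called (86.3%): γH2AX was higher than H3.3 in 23476 (44.2%) and lower in 22346 (42.1%). The split was 17082 higher and 26726 lower with library totals, and 32446 higher and 15092 lower with the summed counts of the 13 autosomes. A difference of at least 2-fold was called in 5160 windows in which γH2AX was higher (9.71%) and in 2583 in which it was lower (4.86%). Of the 5160 windows all but 80 lay on the sex chromosomes, with 3303 of 3311 windows of X and 1777 of 1790 of Y, and the 2583 lower windows were all autosomal.

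Of the 21 chromosome sums, that of X had the largest gap between the marks. The median X window had γH2AX levels of 2.87, 2.97 and 2.99 in the 3 libraries, against H3.3 levels of 1.10, 0.97 and 0.92. Both marks were thus above the autosomes in every library, and the groups did not overlap. As folds over the autosomal median, γH2AX stood at 7.69-fold and H3.3 at 1.99-fold. X took 17.9 to 18.9% of all γH2AX counts and 5.51 to 6.05% of H3.3 counts, while it took 3.16 to 3.17% of input counts. Summed over X, the log2 difference of γH2AX minus H3.3 was 1.82 ± 0.059 (SE; edgeR, adjusted p = 1.7e-09, n = 3 and 3). Of all chromosome sums, 4 were called higher (19%) and 16 lower (76.2%).

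Along X the gap was nearly even. In each of the 167 bins of 1 Mb between 3 and 170 Mb, all 3 γH2AX libraries lay above all 3 H3.3 libraries, and the difference of a bin ran from 1.59 to 1.996. The widest gap of single windows was at Cnksr2, a scaffold of Ras signalling, where counts scaled by TMM to a common library size (CPM) were 64.9, 59.7 and 62.3 for γH2AX and 13.6, 12.5 and 12.8 for H3.3, a difference of 2.26 ± 0.071 (SE). In other stretches of X the widest gaps were at Diaph2, a formin of the actin cytoskeleton (2.21), and Tenm1, a teneurin of neuronal contacts (2.19). Rps6ka6, a kinase of the ribosomal S6 family, stood at 2.16 in another stretch. The window of Cask and Gpr82, a membrane scaffold kinase and an orphan receptor, differed by 2.11. Listed single-copy X genes had γH2AX higher in 55 of 55 windows, all by at least 2-fold. They include Atrx, which with Daxx deposits H3.3 in heterochromatin and had a difference of 2.07, and Usp9x, a deubiquitinase, with 2.06. Multicopy X genes, many of which act in spermatids, had γH2AX higher in 88 of 88 windows, with a median difference of 1.79 against 1.82 in the single-copy list. Gene-rich X windows did not lose the gap: with 3 or more protein-coding genes the median difference was 1.73 over 69 windows, and with none it was 1.83 over 1812. H3.3 on X was higher in gene-rich windows, at 1.23 ± 0.097 (SD, n = 3) with 3 or more genes and 0.94 ± 0.089 with none, while γH2AX levels were 3.03 ± 0.088 and 2.87 ± 0.058.

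The gap narrowed at the pseudoautosomal end of X, the stretch shared with Y in which the sex chromosomes pair and recombine. Over the 6 windows from 170 Mb that had enough counts to be tested, the median γH2AX levels were 1.21, 1.38 and 1.45, against H3.3 levels of 1.04, 0.93 and 1.02. The sums differed by 0.25 ± 0.071 (SE; edgeR over regions, adjusted p = 0.0056). Among the 80 regions tested, γH2AX was called higher in 31 (38.8%) and lower in 46 (57.5%). Within those 6 windows the direction was mixed, with γH2AX higher in 50% and lower in 50%. The window of Asmt, the melatonin-synthesis enzyme, had 822, 902 and 1016 counts for γH2AX and 1746, 1670 and 1560 for H3.3, and γH2AX was lower there by -0.34 (adjusted p = 1.8e-10). The window from 170750001 was lower by -0.98, while its neighbours on either side were higher by 0.93 and 0.92. Mid1, a ubiquitin ligase gene that spans the pseudoautosomal boundary, lay in the last window before it, with a difference of 0.41. Pooled input of these windows ran from 950 to 7192 counts, and reads of sequence shared by X and Y cannot be placed to either.

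The Y chromosome parted in the same direction from a lower level. Its median window had γH2AX levels of 2.01, 2.11 and 2.15 and H3.3 levels of 0.35, 0.21 and 0.16, or 4.26-fold and 1.18-fold over the autosomal median. The summed difference was 1.76 ± 0.049 (SE; adjusted p = 5.8e-10), and all 91 bins of 1 Mb had γH2AX above H3.3. The short arm, which holds the single-copy genes of spermatogenesis, had a difference of 1.497 ± 0.038, and the long arm, filled by multicopy spermatid genes, had 1.77 ± 0.046 (SE each). H3.3 differed between the arms, with a median window of 0.66 ± 0.071 on the short arm and 0.24 ± 0.10 on the long arm (SD, n = 3), while γH2AX stood at 2.06 ± 0.029 and 2.09 ± 0.076. Usp9y, the Y copy of the deubiquitinase Usp9x, had 49.6, 48.3 and 51.8 CPM of γH2AX and 14.8, 14.2 and 12.5 CPM of H3.3, a difference of 1.85. Zfy2, a zinc finger factor needed for meiosis, differed by 1.72. On the long arm Sly, a multicopy repressor of sex-linked genes in spermatids, differed by 1.86, and Ssty1, a spindlin relative, by 1.84. Short-arm list genes were higher in 19 of 19 windows and long-arm list genes in 6 of 6. Copies of these families cannot be told apart by short reads. As no input came from 3Rb, levels of Y and of its arms are not corrected for copy number in this cross. Of 1790 Y windows 1788 were called higher; the window from 90750001, of unusual input, was lower by -0.20, and 1 window with 45 pooled input counts was not called.

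**Figure D1:**
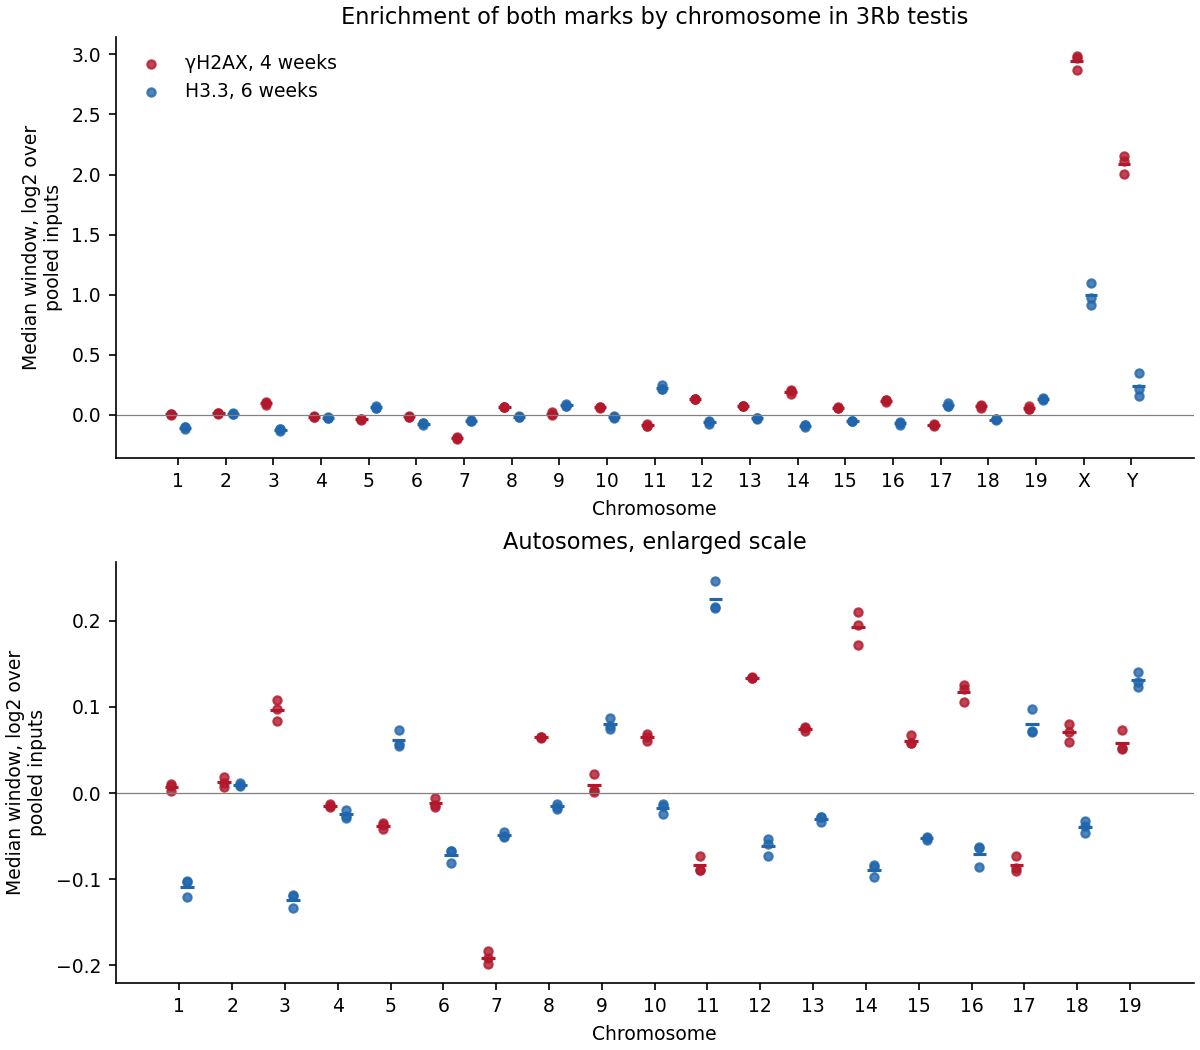
Level of the median 50 kb window (log2 over pooled inputs, 0 = median of the 13 autosomes in no translocation) per chromosome; each point is a library, red γH2AX at 4 weeks and blue H3.3 at 6 weeks of 3Rb, and bars are means of 3. X stands at 2.87 to 2.99 for γH2AX and 0.92 to 1.10 for H3.3; the lower panel enlarges the autosomes, where γH2AX is highest on 14 and H3.3 on 11.

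Among autosomes, γH2AX was called higher than H3.3 over the whole chromosome on 14 and 12 alone, both of them in a translocation. The difference of sums was 0.070 ± 0.0087 on 14 and 0.052 ± 0.0085 on 12 (SE; adjusted p = 3.5e-05 and 0.00022), but both turned negative with library totals, to -0.061 and -0.078. On 3 the sum was not called, at -0.0031 (adjusted p = 0.76), but without γH2AX replicate 1, 2 or 3 it was 0.013, 0.016 and 0.019 and was called. The median window of 14 had γH2AX levels of 0.17, 0.21 and 0.20 and H3.3 levels of -0.097, -0.086 and -0.083. At the other end stood 11, with a difference of -0.47 ± 0.012, then 7 with -0.40 ± 0.011, 17 with -0.39 ± 0.010 and 5 with -0.33 ± 0.011. On 11 the median γH2AX levels were -0.089, -0.073 and -0.089 and those of H3.3 0.25, 0.22 and 0.22. These are differences of summed counts, so the median of -0.096, which is of single windows, is not their zero. Chromosome 1 gave -0.067, 16 -0.084 and 13 -0.088. With the summed counts of the 13 autosomes as scale, 14 chromosomes, X and Y included, were called higher and 5 lower, and 3 gave 0.24.

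Next to the centromeres the marks parted on the translocated chromosomes. In the first 10 Mb of sequence (3 to 13 Mb) of 12, the median window had γH2AX levels of 0.87, 0.95 and 0.92 and H3.3 levels of -0.021, -0.004 and -0.023. On 8 the γH2AX levels were 0.61, 0.67 and 0.66, against 0.050, 0.049 and 0.017 for H3.3. On 1 they were 0.56, 0.59 and 0.61 for γH2AX and -0.21, -0.18 and -0.17 for H3.3. In each of these stretches every γH2AX library lay above every H3.3 library, and H3.3 lay between -0.023 and 0.050 on 8 and 12 and below the autosomal median, the zero of these levels, on 1. The summed differences were 0.60 ± 0.012 on 1, 0.55 ± 0.013 on 12, 0.43 ± 0.014 on 3, 0.39 ± 0.014 on 8 and 0.17 ± 0.015 on 14 (SE; edgeR over 80 regions, adjusted p from 5.2e-13 to 5.1e-07). On 9 the sum gave -0.063 (adjusted p = 0.088), yet 97.0% of its 200 windows were called higher and the sum without windows of unusual input was 0.55. A single window, the first of chromosome 9, held 2.71 to 3.08% of all γH2AX counts and 3.43 to 3.49% of all H3.3 counts, against 4.33 to 4.91% of input counts.

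As a class, the first 10 Mb of 8 and 12 exceeded that of the 13 other autosomes by 0.72 ± 0.036 in γH2AX and by 0.079 ± 0.020 in H3.3 (median window, SD, n = 3). For 1, 3, 9 and 14 the excess was 0.43 ± 0.018 in γH2AX and the level of H3.3 differed by -0.11 ± 0.0032. Both differences between marks gave p = 0.1 in a two-sided exact permutation test, the smallest that 3 libraries against 3 can give. By sums 8 and 12 gave 0.62 in γH2AX and -0.013 in H3.3, so that the H3.3 value turned negative, and without windows of unusual input 0.75 and 0.036. By sums the second class gave -0.14 and -0.32, and without windows of unusual input 0.39 and -0.20.

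By class medians the reach away from the centromere differed, but chromosomes within a class differed as well. On 8 and 12 the median difference of windows was 0.89 in the first 5 Mb of sequence (3 to 8 Mb) and 0.42 in the next 5. Over the following 10 Mb steps (13, 23 and 33 Mb onward) it was 0.11, 0.089 and again 0.56, where 12 had 0.74 and 8 had 0.32. On 1, 3, 9 and 14 it stayed flat at first, with 0.54, 0.56 and 0.48 in the first 3 bands, before 0.21 and -0.030 in the last. In the other autosomes the same 5 bands gave -0.11, 0.099, 0.16, -0.050 and -0.11. With library totals the bands of 8 and 12 from 13 and from 23 Mb turned negative (-0.023 and -0.042), as did that of the other autosomes from 8 Mb (-0.032). Under the summed counts of the 13 autosomes the last band of 1, 3, 9 and 14 and the negative bands of the other autosomes turned positive. H3.3 did not follow γH2AX up: its median window on 1, 3, 9 and 14 was -0.17 in each of the first 2 bands and -0.077 in the last, while γH2AX was 0.48, 0.47 and 0.015. Among the 4, chromosome 14 began lowest, with differences of -0.0033, 0.405 and 0.48 in the first 3 bands. At 23 to 33 Mb, 1, 3, 9 and 14 had 0.59, 0.31, 0.074 and -0.16. Chromosomes 8 and 12 had 0.11 and 0.62 at 8 to 13 Mb, and 0.22 and -0.049 at 13 to 23 Mb.

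**Figure D2:**
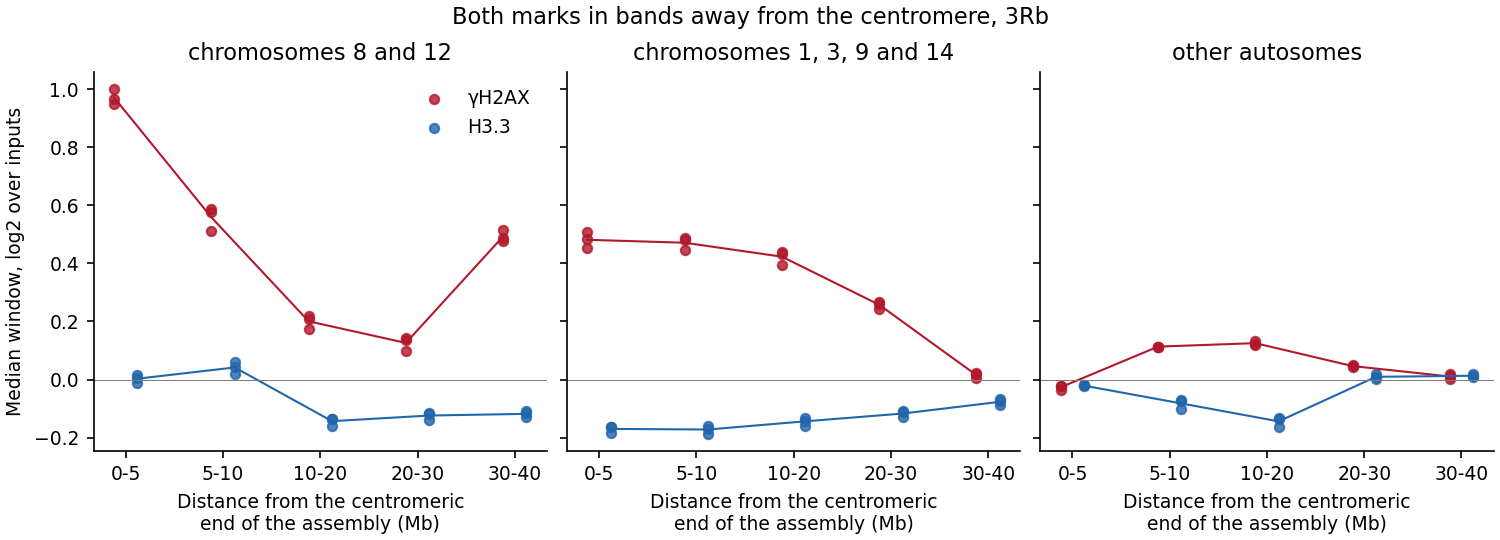
Level of the median window (log2 over pooled inputs) in 5 bands by distance from the centromeric end of the assembled sequence, for chromosomes 8 and 12, for 1, 3, 9 and 14 and for the other autosomes; points are libraries and lines join means, red γH2AX and blue H3.3. γH2AX starts at 0.97 on 8 and 12 and at 0.48 on 1, 3, 9 and 14, while H3.3 starts at 0.003 and -0.17.

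Followed further along, long runs of 1 Mb bins had all γH2AX libraries above all H3.3 libraries. Such bins made up 1214 of 2404 autosomal bins (50.5%), and bins with γH2AX below H3.3 made up 1034 (43%). The longest run was on 14, 39 Mb from 79 to 118 Mb, away from the centromere. On 1 and on 3 the longest run was the first 31 Mb, from 3 to 34 Mb, and on 9 it was the first 18 Mb, to 21 Mb. Chromosome 12 had 29 Mb from 25 to 54 Mb, and 16, in no translocation, had 29 Mb from 58 to 87 Mb. The runs of 12, 14 and 16 thus began away from the centromeric end. The longest runs with H3.3 above γH2AX were shorter: 21 Mb on 4 (123 to 144 Mb), 21 Mb on 5 (110 to 131 Mb) and 20 Mb on 13 (41 to 61 Mb). At the far ends, the last 5 Mb had the summed difference -1.08 ± 0.021 on 11 and -0.85 ± 0.020 on 15 (SE), but 0.25 ± 0.017 on 13, 0.12 ± 0.021 on 17 0.13 ± 0.019 on 18 and 0.079 ± 0.024 on 3. With library totals 17 and 3 turned negative (-0.0090 and -0.051) and 18 gave 0.0030, not called.

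**Figure D3:**
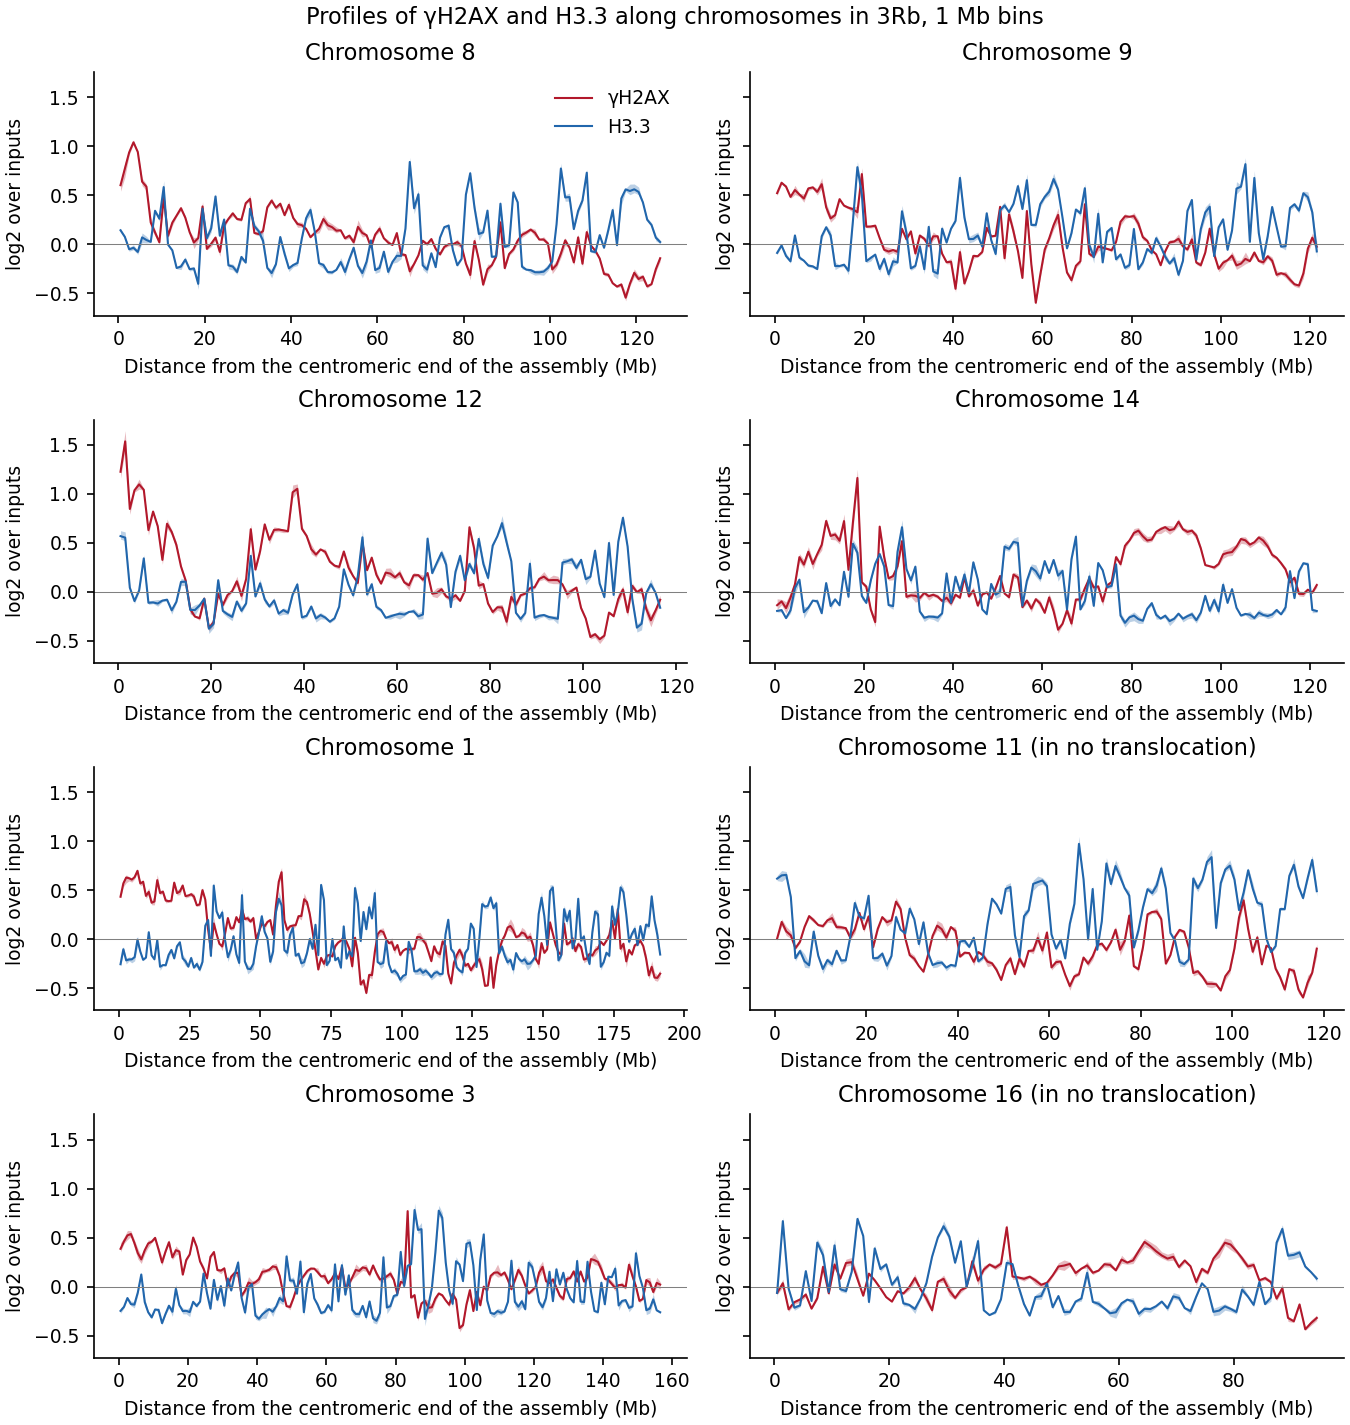
Median level per 1 Mb bin (log2 over pooled inputs) against distance from the centromeric end of the assembly on chromosomes 8, 12, 1, 3, 9, 14, 11 and 16; lines are means and shading the range of 3 libraries, red γH2AX and blue H3.3. The red line leads over the first megabases of 8, 12, 1, 3 and 9 and over a long distal stretch of 14 and 16, and the blue line leads over much of 11.

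A γH2AX excess of at least 2-fold was rare on autosomes and clustered. It was called in 80 of 48017 windows (0.167%), in 25 regions on 4 chromosomes: 49 windows on 12, 20 on 8, 10 on 14 and 1 on 4. The share on 1, 3, 8, 9, 12 and 14 was 98.8%, and those chromosomes held 34.8% of the windows tested. In all, 53 of the 80 lay at 3 to 13 Mb of 8 or 12. The count was 24 with library totals and 637 with the summed counts of the 13 autosomes, and the share on the joined chromosomes was then 100% and 95.9%. Of the 80 windows, 49 held no protein-coding gene (61.3%, against 41.8% of all autosomal windows).

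The gene with the widest gap was Ncoa1, a coactivator of nuclear receptors, at chr12:4300001-4350000 (mm10): 46.8, 50.4 and 46.0 CPM of γH2AX, against 20.6, 18.7 and 20.1 CPM of H3.3, a difference of 1.27 ± 0.066 (SE; adjusted p = 1.4e-81). γH2AX there was at 1.74 over input and H3.3 at 0.38, so both exceeded the autosomal median. Itsn2, an endocytic scaffold, Atad2b, a bromodomain ATPase, and Apob, the apolipoprotein of liver lipoproteins, lay in neighbouring regions of 12 between 4.6 and 8.2 Mb. A region of 23 such windows with no protein-coding gene lay at 6 to 7.5 Mb. Away from the centromere, Dock4, a guanine exchange factor of Rac, had 32.7, 33.1 and 31.9 CPM of γH2AX and 14.5, 14.6 and 13.5 CPM of H3.3 (1.20 ± 0.055). Beyond it, 4 such windows between 41.2 and 41.7 Mb lay in Immp2l, a mitochondrial peptidase gene. On 14, Pcdh17, a protocadherin of cell adhesion, had a difference of 1.25 ± 0.049, with 26.8, 27.9 and 26.0 CPM of γH2AX against 11.4, 10.99 and 11.7 of H3.3, and Adk, adenosine kinase, 1.19 ± 0.062. A single window on 14 lay in Dach1, a transcriptional corepressor. The widest gap of all was in a window with no protein-coding gene, at chr8:99600001-99650000: 51.7, 53.4 and 54.1 CPM of γH2AX against 20.8, 20.1 and 21.9 of H3.3 (1.34 ± 0.068). Only windows in which the groups did not overlap could be named.

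The opposite gap, H3.3 above γH2AX, went with gene density. It reached 2-fold in 2583 autosomal windows (5.38%) in 835 regions, and 94.4% of those windows overlapped a protein-coding gene, against 58.2% of all autosomal windows. By chromosome they were most numerous on 5 with 347 and on 11 with 331, and fewest on 18 with 15 and 14 with 16. As shares of the windows tested, 11 stood highest with 13.9%, then 5 with 11.7% and 17 with 11.5%. The lowest shares were 0.66% on 14 and 0.86% on 18. Autosomal windows with no protein-coding gene had a median difference of 0.18 over 20049 windows, those with 1 or 2 genes -0.23 over 25268, and those with 3 or more -0.85 over 2700. H3.3 levels climbed with gene number, at -0.19 ± 0.018, 0.18 ± 0.014 and 0.67 ± 0.039 (SD, n = 3), and γH2AX levels went the other way by less, at 0.057 ± 0.0084, 0.0086 ± 0.0067 and -0.13 ± 0.017. With 3 or more genes γH2AX was called lower in 89.0% of windows and higher in 6.26%, and with none it was called higher in 60.0% and lower in 23.6%. Against all autosomal windows, those shares were 46.5% lower and 38.3% higher. Bodies of genes over 500 kb sided with the windows without a protein-coding gene, with a median of 0.17 over 3822. The pattern was alike in the 13 autosomes in no translocation, with 0.15, -0.27 and -0.91. With the summed counts of the 13 autosomes the median for 1 or 2 genes was 0.017 in place of -0.23.

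**Figure D4:**
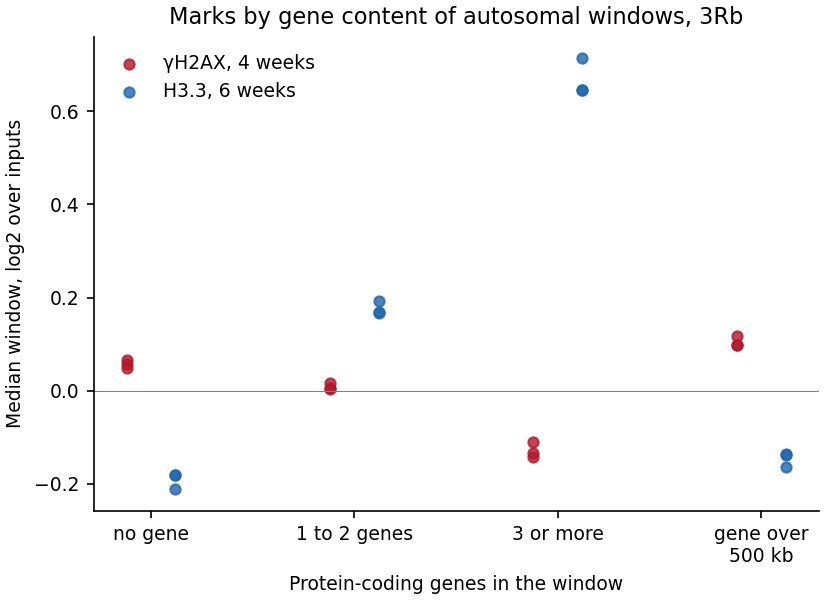
Level of the median autosomal window (log2 over pooled inputs) by number of protein-coding genes in the window, and for bodies of genes over 500 kb; each point is a library, red γH2AX and blue H3.3. H3.3 moves from -0.19 without genes to 0.67 with 3 or more, and γH2AX from 0.057 to -0.13.

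Single windows on the H3.3 side differed by up to 4.49-fold. Elfn2, a phosphatase inhibitor of the membrane (chr15:78650001-78700000), had 9.51, 9.03 and 9.74 CPM of γH2AX and 44.5, 41.4 and 41.2 CPM of H3.3, a difference of -2.17 ± 0.066 (SE; adjusted p = 4.1e-236). Dot1l, the methyltransferase of histone H3 lysine 79, shared its window on 10 with Plekhj1, with 10.3, 11.04 and 9.79 CPM of γH2AX against 44.5, 43.05 and 42.1 of H3.3 (-2.06 ± 0.066). γH2AX was below the autosomal median at both, at -0.80 and -0.83, and H3.3 above it at 1.28 and 1.14. Mdc1, the adaptor that spreads γH2AX along chromatin, shared a window on 17 with Nrm, at -1.90 ± 0.063. That window was 1 of 10 named on this side, each the widest of its stretch and at most 2 per chromosome. The gene of the spreading factor lay in chromatin with 9.74, 10.4 and 11.1 CPM of γH2AX and 40.3, 37.6 and 38.6 CPM of H3.3. The others were Mroh4 (-1.97), the small heat shock gene Hspb6 with its neighbour Proser3 (-1.96), Dolpp1 and the carnitine acetyltransferase Crat (-1.90), Sgsm1 (-1.89), the scaffold attachment factors Safb2 and Safb (-1.86), Gm40363 (-1.85) and the keratan sulfotransferase Chst1 (-1.83). Called windows often ran together: the stretch of 2 around Crat held 66 such windows over 3450 kb with 88 genes, and that of 10 around Dot1l 42 windows over 2100 kb with 125 genes.

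Promoters in these windows were rich in CG, the dinucleotide of CpG islands. Over 5741 RefSeq promoters (GRCm38.p6, 250 bases before to 50 after the start) in the H3.3-side windows the median was 17 CG and 59.3% GC, against 7 CG and 53.0% GC over all 31356 autosomal promoters matched to a tested window. At least 10 CG were found in 66.0% of the promoters in H3.3-side windows and in 43.9% of all. The 80 γH2AX-side windows held 5 promoters, with a median of 4 CG. CG reads the same on both strands. The 8 promoters of named H3.3-side windows that matched held 17 to 49 CG, and the 5 of the γH2AX side 0 to 9. The sequences below are the pair with the most CG of those 8 (Dot1l and Safb) and, from the γH2AX side, Apob, which has the most of the 5, and the noncoding Gm32631, with CG in capitals, 5′ to 3′ on the gene's strand. At 50 kb, neither mark can be assigned to a promoter.
Dot1l, chr10:80754953-80755252, + strand, 49 CG: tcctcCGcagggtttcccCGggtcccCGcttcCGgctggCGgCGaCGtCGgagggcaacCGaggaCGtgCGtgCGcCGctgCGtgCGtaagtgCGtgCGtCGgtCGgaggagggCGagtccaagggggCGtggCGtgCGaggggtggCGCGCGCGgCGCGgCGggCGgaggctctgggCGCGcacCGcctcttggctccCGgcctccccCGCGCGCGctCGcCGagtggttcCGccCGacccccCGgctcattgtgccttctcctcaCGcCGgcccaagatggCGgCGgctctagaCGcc
Safb, chr17:56584732-56585031, + strand, 47 CG: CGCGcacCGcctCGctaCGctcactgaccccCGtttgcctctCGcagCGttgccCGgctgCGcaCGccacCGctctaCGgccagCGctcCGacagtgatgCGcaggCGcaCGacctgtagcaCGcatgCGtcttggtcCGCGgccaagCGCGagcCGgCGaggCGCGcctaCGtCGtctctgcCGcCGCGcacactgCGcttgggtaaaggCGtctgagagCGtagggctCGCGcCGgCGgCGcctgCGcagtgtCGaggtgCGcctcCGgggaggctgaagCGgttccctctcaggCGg
Apob, chr12:7977427-7977726, + strand, 9 CG: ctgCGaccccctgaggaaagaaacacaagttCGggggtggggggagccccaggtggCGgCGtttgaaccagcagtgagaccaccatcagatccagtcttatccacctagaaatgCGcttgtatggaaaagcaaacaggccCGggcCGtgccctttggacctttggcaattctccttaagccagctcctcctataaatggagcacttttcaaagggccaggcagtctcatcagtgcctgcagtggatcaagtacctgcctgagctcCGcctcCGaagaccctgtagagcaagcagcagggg
Gm32631, chr12:6133582-6133881, + strand, 2 CG: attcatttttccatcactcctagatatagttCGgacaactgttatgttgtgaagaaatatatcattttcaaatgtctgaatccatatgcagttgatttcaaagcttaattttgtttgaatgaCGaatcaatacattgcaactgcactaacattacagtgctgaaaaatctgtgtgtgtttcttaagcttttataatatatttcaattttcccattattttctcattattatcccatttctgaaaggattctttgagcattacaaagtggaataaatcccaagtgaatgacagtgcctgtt

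Gene lists of the germ line and of general upkeep fell mostly on the H3.3 side. Over all autosomal windows 38.3% were higher and 46.5% lower, with a median of -0.10 in the 13 autosomes. Windows with 1 or 2 protein-coding genes were lower in 60.2% and higher in 24.5%, and those with 3 or more in 89.0% and 6.26%. The lists were not matched to other windows by gene number. Genes of the silencing pathway itself had γH2AX lower in 33 of 38 autosomal windows, 17 of them by 2-fold, and higher in 1, that of the kinase gene Atm (0.33, with 22.9, 23.9 and 21.9 CPM of γH2AX). H2ax, the gene of the histone, differed by -1.23, and Rad9a, of the checkpoint clamp, by -1.31. On X, the pathway's own members Scml2, a Polycomb-related factor of the sex body, and Ube2a, a ubiquitin-conjugating enzyme, were higher by 1.997 and 1.70 like the rest of that chromosome. Genes of meiotic prophase had γH2AX lower in 66 of 80 windows and higher in 11. Msh5, of crossover formation, differed by -1.49 and Dmc1, the meiotic recombinase, by -1.26, while Mei4, a factor of break formation, was higher by 0.77 and Mybl1, the transcription factor of pachytene, by 0.38 at 3 to 13 Mb of chromosome 1. Spermatid genes were lower in 37 of 44 windows, with Spem1 at -1.52 and Ldhc at -1.46, and higher only at Acrv1 among those called. Spermatogonial genes were lower in 38 of 42 and higher in 0, with Nanos2 at -1.37.

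Lists of the somatic cells of the testis moved with these calls, and their windows too were not matched by gene number. Leydig genes were lower in 13 of 14 windows, Sertoli genes in 20 of 28 with 5 higher, and genes of peritubular and blood cells in 18 of 25 with 5 higher. The part of somatic cells in the result was not tested. Histone clusters had γH2AX lower in 18 of 18 windows, 14 of them by 2-fold, with a median of -1.21. H3.3 and its chaperones were lower in 20 of 20, with Daxx at -1.69 and the H3.3 gene H3f3b at -1.37. Housekeeping genes were lower in 28 of 28, with Eef2 at -1.69 and Gapdh at -1.60. Imprinted genes were lower in 48 of 66 and higher in 5. At Snrpn and Snurf, the imprinted splicing-factor locus of 7, γH2AX was higher by 0.82 ± 0.060 (SE), with 35.9, 33.2 and 38.7 CPM of γH2AX. Listed zinc finger genes, clustered or not, were lower in 419 of 546 windows and higher in 53.

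Lists that sided with γH2AX were gene families of sensory and mucosal tissues. Olfactory receptors had it higher in 336 of 575 windows and lower in 104, vomeronasal receptors in 201 and 27 of 326, and defensins and secretoglobins in 46 and 11 of 68. Their median differences, 0.14, 0.14 and 0.21, came with H3.3 levels below the autosomal median (-0.24, -0.29 and -0.35) and γH2AX levels near it (-0.0083, -0.085 and -0.040). With library totals the calls were 179 higher and 174 lower for olfactory and 63 and 62 for vomeronasal receptors. No list median changed sign under library totals, the summed counts of the 13 autosomes or DESeq2. Near-identical receptor copies may share reads.

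Agreement of the marks was described with separate inputs, γH2AX over that of 1Rb_M and H3.3 over that of Cg, so that no input entered both levels. Over 48015 autosomal windows, which share base composition and mappability and are not independent, Spearman's rho was -0.21. Both marks lay above the autosomal median in all their libraries in 16.4% of windows and both below in 13.5%. γH2AX lay above and H3.3 below in 26.9%, and the reverse held in 22.4%. Per autosome rho ran from -0.41 on 15 and -0.34 on 10 to -0.074 on 7 and -0.043 on 12. The overall value was -0.12 with the inputs exchanged, which gave 7 and 12 positive values of 0.058 and 0.043. The sex chromosomes behaved otherwise: within X, where 99.9% of windows had both marks above, rho was 0.64 over 3309 windows. Within Y it was 0.94 over 1789 windows, of which 58.3% had both above and 22.6% had γH2AX above with H3.3 below; with the zero set by summed counts of the 13 autosomes these shares were 47.8% and 35.6%, a setting chosen after seeing the data. Repeats of Y that draw many reads in both marks enter that value.

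Of the windows high or low in both marks, only a few were named, by rank. Cwc22, a splicing factor in a strain-variable duplicated segment of 2, had γH2AX levels of 2.72, 2.83 and 2.97 and H3.3 levels of 2.81, 2.74 and 2.69, and its window did not differ (0.018, adjusted p = 0.83). Naip6, an inflammasome receptor of a multicopy cluster on 13, had 1.40, 1.32 and 1.34 and 1.04, 1.04 and 1.07. The windows of Elavl1 with Ccl25 and of Tgfbr3l with Snapc2, at 4.3 Mb of 8, had γH2AX at 0.99 to 1.16 and 0.88 to 1.03 and H3.3 at 0.83 to 1.00 and 0.94 to 1.06. Low in both were the urinary protein genes Mup2 (-1.38, -1.27 and -1.43 for γH2AX, -1.55, -1.43 and -1.54 for H3.3) and Mup17 on 4, the pheromone gene Esp15 on 17 and the homeobox gene Obox1 on 7. Several of these are families known to vary in copy number between mouse strains, and copy number was not measured in 3Rb.

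Set against the 1Rb_M cross, γH2AX was higher relative to H3.3 in 3Rb near the centromeres of 1, 3, 9 and 14, which only 3Rb has joined. The tested quantity is γH2AX minus H3.3 in 3Rb less γH2AX minus H3.3 in 1Rb_M, with 3 libraries in each of the 4 groups. It is signed, so a positive value need not mean a wider gap. It was called positive in 3492 windows (6.57%) and negative in 3617 (6.81%). At 3 to 13 Mb of 1, 3, 9 and 14 it was positive in 684 of 800 windows and negative in 0, with a median of 0.46. On 8 and 12, joined in both crosses, the same stretch had 0 positive and 7 negative windows of 400 and a median of -0.0020. The other autosomes had 54 positive and 75 negative of 2590. Further out on 8 and 12, in the band of 33 to 43 Mb, 148 of 400 windows were positive and 0 negative, with a median of 0.19. Most of the 148 lay on 12. Over its whole length 8 had 34 positive and 236 negative windows, against 204 and 184 on 12. Summed, the stretch gave 0.58 ± 0.045 on 1, 0.47 ± 0.069 on 3 and 0.27 ± 0.038 on 14 (SE; adjusted p = 7.5e-06, 0.00049 and 0.00042), against -0.094 ± 0.15 on 8 and 0.049 ± 0.14 on 12 (adjusted p = 0.68 and 0.82). On 9 it was 0.14 ± 0.18 over 3 to 13 Mb and 0.27 ± 0.021 over 13 to 33 Mb (adjusted p = 0.63 and 7.5e-06). Of the 80 regions, 17 were called positive (21.2%) and 5 negative (6.25%); with library totals 13 of the 17 were no longer called.

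At single genes γH2AX minus H3.3 differed between 3Rb and 1Rb_M as follows. Cwf19l2, a splicing-related gene at 3.4 Mb of 9, had 25.8, 25.8 and 25.2 CPM of γH2AX in 3Rb and 12.7, 13.1 and 11.1 in 1Rb_M, while H3.3 was at 19.3, 20.01 and 18.2 in 3Rb and 19.8, 18.4 and 18.5 in 1Rb. There γH2AX lay above H3.3 in 3Rb and below it in 1Rb_M, and γH2AX minus H3.3 was higher in 3Rb by 1.03 ± 0.091 (SE; adjusted p = 2.5e-06). Slc4a7, a bicarbonate transporter on 14, gave 1.07 ± 0.11, Chordc1 with Naalad2 on 9 gave 0.77, Pex2, a peroxisome factor on 3, gave 0.76, Dnah12, a dynein on 14, gave 0.64 and Gm597 on 1 gave 0.60. On the negative side were Apba2 (-0.57), Rbfox3 (-0.57), Adamts2 (-0.56), Otog (-0.54) and Nos1 (-0.53), all on 5, 7 or 11.

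Whole chromosomes called positive were 14 (0.18 ± 0.024), 1 (0.090 ± 0.027), 3 (0.086 ± 0.019) and 13 (0.070 ± 0.016), 4 of 21 (19%), and 7 was called negative (-0.093 ± 0.030), 1 of 21 (4.76%). The call of 7 was lost without H3.3 replicate 1 or 2 of 1Rb or any 1 of the H3.3 libraries of 3Rb (-0.12 to -0.072 over all omissions of 1 library, adjusted p up to 0.12), and that of 1 without replicate 2 or 3 of H3.3 in either cross (0.071 to 0.097, adjusted p up to 0.080). With library totals 1, 3 and 13 turned negative and no chromosome was called positive. X gave 0.43 ± 0.25 and Y 0.48 ± 0.22, neither called (adjusted p = 0.30 and 0.19). The γH2AX libraries of 1Rb_M differed among themselves, with 12.3, 12.3 and 18.9% of counts on X, against 17.9 to 18.9% in 3Rb. Without the third of them the windows called were 10791 positive and 6013 negative, X and Y were called at 0.73 and 0.76, 12 at 3 to 13 Mb was called at 0.22, and 7 chromosomes were called positive. With that library alone for its group, and assumed to vary like those of the other groups, X gave -0.075, 8887 windows were negative, and 8 and 12 at 3 to 13 Mb were called at -0.45 and -0.28. The regions of 1, 3 and 14 at 3 to 13 Mb kept their sign under every alternative run, at 0.46 to 0.62, 0.34 to 0.57 and 0.15 to 0.28, and that of 14 was not called with library totals (adjusted p = 0.12).

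**Figure D5:**
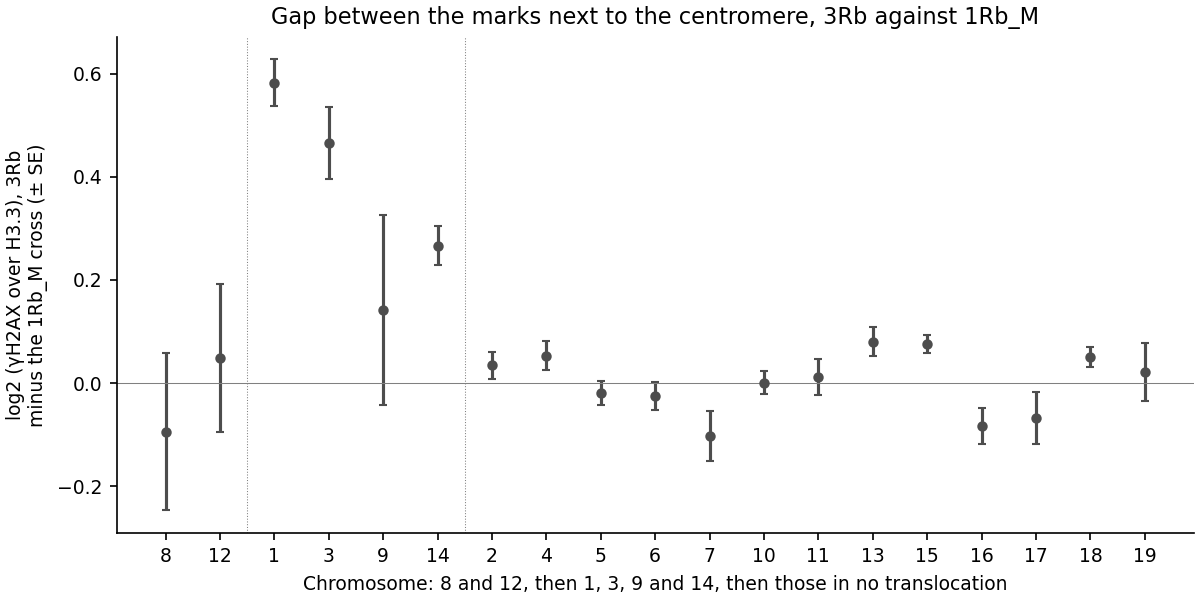
Log2 difference of γH2AX minus H3.3 in 3Rb less the same in the 1Rb_M cross over counts summed at 3 to 13 Mb, by chromosome; points are edgeR estimates and bars ± 1 SE, from 3 libraries in each of 4 groups. Chromosomes 1, 3 and 14 stand at 0.58, 0.47 and 0.27, and 8 and 12, joined in both crosses, at -0.094 and 0.049.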

How the data were processed

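Read counts per 50 kb window of mm10 were used as deposited for 12 ChIP and 3 input libraries of testis. The authors made these counts from Illumina reads with CASAVA 1.8 and BWA, per the submitters' processing notes; mapping settings and duplicate handling are not given in the sources used here. Windows with a mean of at least 10 counts were tested with edgeR 4.0.16 (R 4.3.3; quasi-likelihood test, TMM scaling, Benjamini-Hochberg adjustment, threshold 0.05), and counts summed per chromosome and region likewise. Named p-values are from edgeR unless an exact permutation test (scipy 1.17.1) is named. Levels are log2 of (count + 0.5) over pooled input (+ 0.5). DESeq2 1.42.0, library totals, the summed counts of 13 autosomes, no filter, omission of windows with input above 5 or below 0.2 times the median, a replicate block and omission of each library were alternatives; the fit with 1Rb_M replicate 3 alone was chosen after seeing the data. Genes and promoters are from RefSeq GRCm38.p6. The members and gene lists were chosen with earlier results of these data known. Windows were named by rank among those called, past 2-fold, with groups that do not overlap and pooled input within 0.2 to 5 times the median. They were merged into regions, with 10 regions per direction on autosomes (at most 2 per chromosome, genes first), 5 on X and 3 on Y. Named by rank as well were 6 windows each high and low in both marks, 6 per direction for the cross difference and up to 4 members per list. A window that this rule names is not reported here. Counting errors cover counting only.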

Additional observations from a re-analysis of the deposited data

Results flagged for a closer look

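The gap of γH2AX minus H3.3 in 3Rb less that in the 1Rb_M cross was called by its own test in 5 whole chromosomes and 22 regions, all log2 values from edgeR with 3 libraries in each of 4 groups. By whole chromosome it was 0.18 on 14, 0.090 on 1, 0.086 on 3 and 0.070 on 13, and -0.093 on 7. At 3 to 13 Mb it was 0.58 on 1, 0.47 on 3 and 0.27 on 14. Over 13 to 33 Mb it was 0.37 on 1, 0.26 on 3, 0.27 on 9 and 0.29 on 14. Beyond 33 Mb of 14 it was 0.14, and in the last 5 Mb of 13, a chromosome in no translocation, 0.23. With library totals 5 of these regions were no longer called: 14 at 3 to 13 Mb (0.15, adjusted p = 0.12), 3 and 14 over 13 to 33 Mb (0.14 and 0.17, adjusted p = 0.11 and 0.16), 14 beyond 33 Mb (0.020, adjusted p = 0.78) and the end of 13 (0.12, adjusted p = 0.12). The other 8 positive regions were smaller and turned negative, uncalled, with library totals, and 7 of them, all but that of 6, lost the call under the omission of at least 1 library. These were, over 13 to 33 Mb, 0.10 on 6, 0.067 on 13, 0.060 on 19, 0.054 on 18 and 0.043 on 11, then 0.081 on 12 and 0.057 on 13 beyond 33 Mb, and 0.076 on 15 at 3 to 13 Mb. Negative regions were the last 5 Mb of 16 (-0.23), 8 (-0.22), 1 (-0.14) and 12 (-0.11), and 13 to 33 Mb of 7 (-0.16). Those of 16 and 8 were called under every omission of 1 library. That of 12 was lost without any 1 of the H3.3 libraries, that of 1 without any 1 of those of 3Rb, and that of 7 without replicate 1 of H3.3 in 3Rb (adjusted p up to 0.095, 0.086 and 0.064). The crosses also differ in strain, and translocation and strain cannot be told apart.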

How the results depend on the processing

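Within 3Rb, all 317 values of named windows under alternatives kept direction and call, and 226 region values did, while 6 reversed and 10 crossed the threshold. With library totals, 4158 windows were lower by 2-fold (4157 autosomal) and 24 autosomal ones higher, 12 and 14 reversed to -0.078 and -0.061, 2 chromosomes were higher, and the sums of 9 and 14 over 13 to 33 Mb (-0.042 and -0.087) and of the last 5 Mb of 17 and 3 (-0.0090 and -0.051) reversed. With the summed counts of the 13 autosomes, 778 windows were lower by 2-fold and 637 higher on autosomes, 14 chromosomes were higher and 5 lower, and 3 (0.24) and 9 at 3 to 13 Mb (0.18) reversed. Scaling on autosomes only gave 159 autosomal windows higher by 2-fold. Without windows of unusual input, 9 at 3 to 13 Mb was 0.55. Leaving out 1 library moved the sum of 3 between -0.0058 and 0.019. For the difference between crosses, library totals gave 1895 windows positive and 8979 negative, 0 chromosomes positive and 5 negative, and reversed 1 (-0.027), 3 (-0.031), 9 (-0.024), 13 (-0.046), 12 and 15 at 3 to 13 Mb (-0.057 and -0.040), 6, 11, 13, 18 and 19 over 13 to 33 Mb (-0.011, -0.073, -0.050, -0.063 and -0.056) and 12 and 13 beyond 33 Mb (-0.034 and -0.059). DESeq2 gave 1954 and 1487 windows. With 1Rb_M γH2AX replicate 3 alone, 8887 windows and 11 chromosomes were negative, and X (-0.075), 12 at 3 to 13 Mb (-0.28) and 11 over 13 to 33 Mb (-0.0075) reversed. Leaving out 1 library gave 2060 to 10791 windows positive and 2374 to 6013 negative, 3 to 7 chromosomes positive and 0 to 4 negative, and -0.22 to 0.088 on 8 and -0.076 to 0.22 on 12 at 3 to 13 Mb. Replicate numbers do not pair the libraries (correlations of same-numbered γH2AX and H3.3 libraries -0.28, -0.11 and -0.10). A replicate block left 1 chromosome positive and 0 negative between crosses. The cause was not tested for any of these. Mark and age cannot be told apart, no input of 3Rb was used, and windows of 50 kb do not resolve promoters.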

Other observations

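A short stretch of the Y short arm was low in both marks. Over 7 windows starting between positions 1700001 and 2000001 the median level was -0.67, -0.75 and -0.79 for γH2AX and -1.62, -1.40 and -1.59 for H3.3, against 2.19, 2.22 and 2.25 for γH2AX and 0.82, 0.73 and 0.64 for H3.3 over the other 56 windows of that arm. γH2AX was still the higher mark in each of the 7 windows, by 0.38 to 0.77. The copy number of this stretch in 3Rb was not measured.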
